A study of Saccharomyces cerevisiae with 6 samples.

Results

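The features described here are the RNA subunit gene of mitochondrial RNase P, RPM1, and the 8 annotated origins of replication of yeast mitochondrial DNA, ORI1 to ORI7 and ORI88. They are all 9 features that the deposited tables class as mitochondrial non-coding RNA, out of 45 mitochondrial features and 5654 features in all. RNA came from mitochondria, isolated by breaking spheroplasts and differential centrifugation, of the laboratory strain CEN.PK113-7D of Saccharomyces cerevisiae, and was compared between 3 cultures labelled ethanol, whose medium the growth protocol gives as ethanol-glycerol, and 3 cultures on glucose, all harvested in mid-exponential growth. The RNA received a poly(A) tail from an added enzyme and was read directly on a Nanopore instrument, without cDNA. The levels are in CPM, which scales the reads of a feature to the assigned reads of its library.

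RNase P is the enzyme that cuts the leader from the 5′ end of precursor tRNAs. In yeast mitochondria it consists of an RNA encoded by the mitochondrial genome, RPM1, and a protein encoded in the nucleus, RPM2. RPM1 is transcribed between tRNA genes and is itself released from a longer precursor. The origins are AT-rich stretches with short GC-rich clusters, and the origins regarded as active have a promoter at 1 end, from which the mitochondrial RNA polymerase RPO41 makes an RNA that can prime DNA synthesis. Mitochondrial promoters of yeast share the 9-base sequence ATATAAGTA.

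The start of each origin is printed from the S288C reference (RefSeq, assembly R64), because it showed which origins have that promoter sequence. The CEN.PK113-7D sequence was not used, so that a base may differ between the strains. Each run has 30 bases before the annotated first base and 50 bases after it, on the strand of the origin. Capitals mark ATATAAGTA in the first 3 runs and, in the other 4, a GC-rich stretch of 27 bases.
ORI2 (chrM:32201-32280, plus strand): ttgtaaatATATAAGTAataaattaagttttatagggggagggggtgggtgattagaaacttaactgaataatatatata
ORI3 (chrM:54791-54870, minus strand): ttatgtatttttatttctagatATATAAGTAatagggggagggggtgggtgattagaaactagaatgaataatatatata
ORI5 (chrM:82299-82378, plus strand): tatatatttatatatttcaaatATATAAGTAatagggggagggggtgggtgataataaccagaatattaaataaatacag
ORI1 (chrM:4263-4342, minus strand): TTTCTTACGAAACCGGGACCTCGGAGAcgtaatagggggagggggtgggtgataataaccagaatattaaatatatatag
ORI88, named ORI8 in R64 (chrM:12731-12810, minus strand): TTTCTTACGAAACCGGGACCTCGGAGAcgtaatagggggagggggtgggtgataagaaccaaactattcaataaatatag
ORI7 (chrM:30190-30269, plus strand): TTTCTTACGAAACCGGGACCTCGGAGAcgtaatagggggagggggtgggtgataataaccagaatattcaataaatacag
ORI4 (chrM:56783-56862, minus strand): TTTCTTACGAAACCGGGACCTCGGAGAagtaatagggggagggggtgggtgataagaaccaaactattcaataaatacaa

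ORI2, ORI3 and ORI5 held ATATAAGTA at their start, and ORI1, ORI88, ORI7 and ORI4 held the GC-rich stretch in its place. In ORI3 and ORI5 the last base of ATATAAGTA was the first base of the origin, and in ORI2 13 bases lay between them. ORI2 has 271 bases in R64 and 297 in the deposited tables, so that where ATATAAGTA lies relative to the counted feature is not known. On both strands of the S288C mitochondrial genome of 85779 bases, 14 copies of ATATAAGTA were found, and 0.588% of all windows of 80 bases, each read on its own strand, held one. The GC-rich stretch had 5 copies in the genome, 4 of them at these origins, and 0.157% of the windows held it. ORI6 was left out of this comparison because its annotated span is much longer, 2701 bases in R64 and 1553 bases in the deposited tables.

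ORI5 is printed whole to show what the origins have in common (chrM:82329-82600 of R64, plus strand). Capitals mark the 4 blocks of at least 10 bases that all 7 shorter origins contain, the first of them the GC-rich cluster at the start.
ORI5: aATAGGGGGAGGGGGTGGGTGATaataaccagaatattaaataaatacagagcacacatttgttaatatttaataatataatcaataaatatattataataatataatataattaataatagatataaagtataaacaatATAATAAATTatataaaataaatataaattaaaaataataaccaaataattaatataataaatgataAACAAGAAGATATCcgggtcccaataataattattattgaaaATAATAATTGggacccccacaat

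The origins resemble one another in sequence, and whether reads matched several of them was not tested. Identity over a global alignment was 88.4% between ORI2 and ORI3, 87.8% between ORI3 and ORI5 and 85.1% between ORI2 and ORI5, and was lowest, 58.8%, between ORI7 and ORI4. Of the 42 nonzero values of the 9 features, 21 were whole numbers of reads within 0.005 read, and the others had split reads. ORI3 had whole reads in all 6 libraries and ORI2 in none. RPM1 and ORI6, which were not in this alignment, had whole reads in 3 and 2 of 6 libraries. Why reads were split was not tested. The part of read splitting in the levels was not tested either.

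The beginning of RPM1 and the promoter that precedes its transcription unit are printed because RPM1 carried most of the RNA described here. RPM1 had 483 bases in both assemblies and 19.9% G and C, close to the 17.1% of the whole mitochondrial genome. Capitals mark ATATAAGTA, which ended 12 bases before the first base of tM(CAU)Q2, the initiator methionine tRNA gene upstream of RPM1, and 0 copies lay in RPM1 itself on either strand.
Start of tM(CAU)Q2 (chrM:85005-85064 of R64, plus strand): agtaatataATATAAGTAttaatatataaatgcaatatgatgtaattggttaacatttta
First 150 bases of RPM1 (chrM:85295-85444 of R64, plus strand): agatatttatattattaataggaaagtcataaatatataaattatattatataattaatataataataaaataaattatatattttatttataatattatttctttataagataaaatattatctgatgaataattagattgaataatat

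Positions from here on are those of the deposited tables, on the CEN.PK113-7D mitochondrial assembly. RPM1 (86132 to 86614), ORI7 (30887 to 31261), ORI2 (32872 to 33168), ORI6 (45955 to 47507) and ORI5 (83118 to 83389) were on the plus strand. ORI1 (4019 to 4319), ORI88 (13062 to 13332), ORI3 (55473 to 55747) and ORI4 (57519 to 57783) made up 4 of the 5 minus-strand features of the mitochondrial genome. None of the 9 overlapped another listed feature. ORI6 ended at the base before OLI1, the gene of ATP synthase subunit 9, with a gap of 0 bases. RPM1 lay 230 bases after tM(CAU)Q2, and the next gene around the circular map was the proline tRNA tP(UGG)Q, 732 bases on in R64. ORI7 and ORI2 were neighbours, 1610 bases apart downstream of ATP6, as were ORI3 and ORI4, 1771 bases apart between VAR1 and the 21S rRNA. The other gaps were 953 bases or more: ORI1 lay between tP(UGG)Q and the 15S rRNA, ORI88 between tW(UCA)Q and COX1, and ORI5 between COX3 and tM(CAU)Q2. Whether reads were counted by strand is not given in the sources used here.

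The depth was between 267509 and 1093126 assigned reads per library, of which between 15208 and 106789 were mitochondrial. The mitochondrial part of the CPM was 12.6% for ethanol replicate 1, 5.69% for replicate 2 and 3.15% for replicate 3, and between 6.41% and 7.50% for glucose. A value of 0 allows up to 3 reads, which amounts to between 3.54 and 11.2 CPM for the ethanol libraries and no more than 3.22 CPM for glucose. These limits and the intervals below cover counting error only. The series describes the libraries as biological triplicate cultures. A share of reads cannot tell more RNA of 1 feature from less of the others.

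RPM1 was the most abundant of the 9 features in every library. It had 4674, 1944 and 672 CPM in ethanol replicates 1, 2 and 3, and 456, 761 and 811 CPM in glucose replicates 1, 2 and 3. Ethanol replicates 1 and 2 lay above all glucose libraries, while ethanol replicate 3 lay within their range, so the groups overlapped. The means were 2430 ± 2045 CPM in ethanol and 676 ± 192 CPM in glucose (SD, n = 3). The log2 fold change of RPM1, ethanol over glucose on the log2(CPM + 1) scale, was 1.48 ± 1.03 (SE) and did not pass the threshold of 0.05 (limma adjusted p = 0.298). It was 0.80 without ethanol replicate 1 and 2.20 without ethanol replicate 3, and passed in neither. Per kilobase of feature, RPM1 had the highest level of the 43 mitochondrial features other than rRNA in both groups, with mean levels of 5031 CPM per kb in ethanol and 1399 CPM per kb in glucose. By mean CPM, without regard to length, RPM1 had rank 1 among them in ethanol and rank 2 in glucose, where COX1 was higher at 2802 CPM.

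As a share of the mitochondrial CPM, which does not depend on how much nuclear RNA a library held, RPM1 was higher in every ethanol library than in any glucose library. The share of RPM1 was 3.71%, 3.42% and 2.14% for ethanol replicates 1 to 3, and 0.608%, 1.18% and 1.27% for the glucose libraries. The lowest 95% Wilson bound in ethanol, on reads rounded to whole numbers, was 1.95%, in replicate 3, and the highest bound in glucose was 1.35%. The difference of the means was 2.07 percentage points (two-sided exact permutation test, p = 0.1, which no comparison of 3 libraries with 3 can go below). Over all 45 mitochondrial features, tested alike, the adjusted p was 0.196.

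When rRNA was left out of the total, RPM1 and COX1 changed places as the main component. Of the CPM that remained, RPM1 held 55.9%, 53.03% and 22.8% for ethanol replicates 1, 2 and 3, and 10.6%, 15.7% and 14.8% for glucose. COX1, which encodes subunit 1 of cytochrome c oxidase and whose feature of 12918 bases includes its introns, took 16.3%, 17.2% and 27.7% in ethanol and 57.4%, 57.04% and 57.99% in glucose. RPM1 thus exceeded COX1 in ethanol replicates 1 and 2, and was below it in ethanol replicate 3 and in all glucose libraries. Ethanol replicate 3 stood between the other ethanol libraries and glucose for RPM1, although not overlapping with glucose. Together, the 9 features took 64.9%, 63.9% and 34.8% of the CPM other than rRNA in ethanol replicates 1 to 3 and between 17.5% and 20.8% in glucose.

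**Figure D1:**
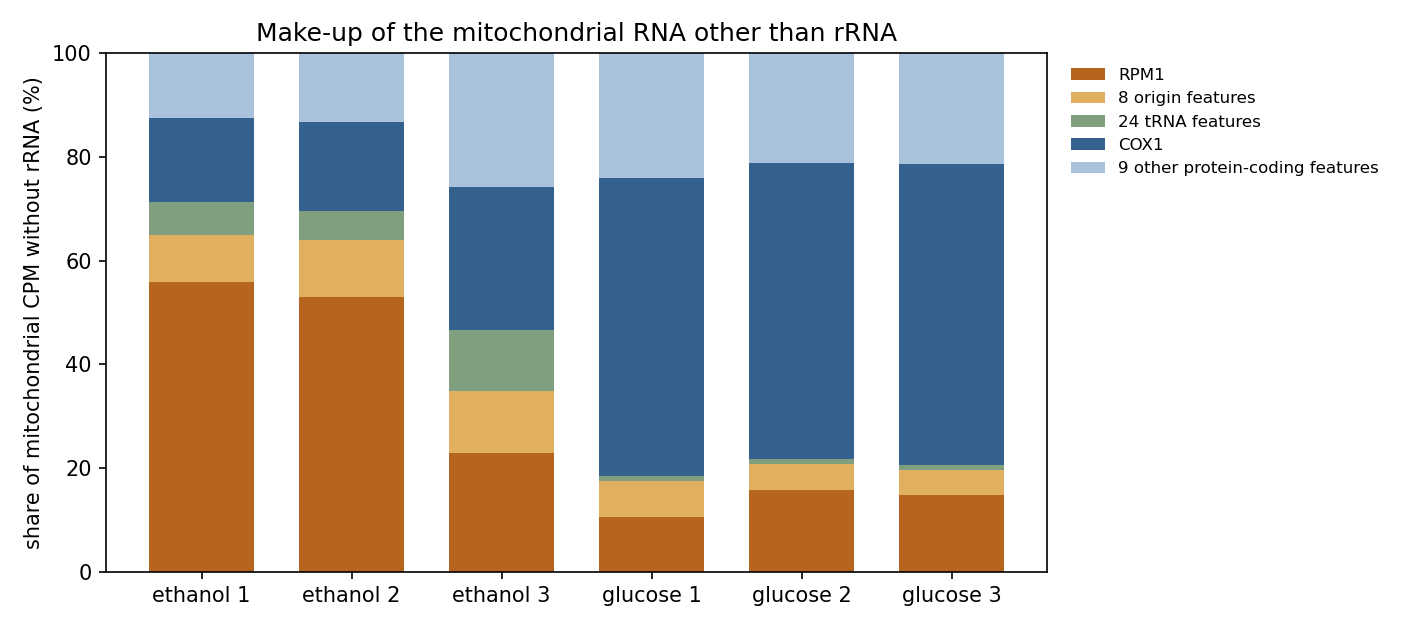
Stacked bars give the share of the mitochondrial CPM without rRNA (vertical axis, percent) taken by RPM1, the 8 origin features, the 24 tRNA features, COX1 and the 9 other protein-coding features in each of the 6 libraries. RPM1 takes between 22.8% and 55.9% in the ethanol libraries and between 10.6% and 15.7% in the glucose libraries.

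RPM1 was set against the RNAs of its own genome in ratios, which do not depend on library scaling. Relative to the 15S rRNA, the RNA of the small mitochondrial ribosomal subunit, RPM1 stood at 4.58%, 4.37% and 2.96% for ethanol replicates 1 to 3, and at 0.701%, 1.45% and 1.65% for glucose. The groups did not overlap, and the mean log2 ratio was 1.72 higher in ethanol (exact permutation p = 0.1, adjusted over the 4 ratios 0.133).

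The ratio of RPM1 to the tRNAs went the other way. RPM1 had 8.86, 9.49 and 1.94 times the CPM of the 24 mitochondrial tRNA features together in ethanol replicates 1 to 3, and 10.8, 18.01 and 16.4 times in glucose. The groups did not overlap, although ethanol replicate 2 and glucose replicate 1 lay close, and the mean log2 ratio fell by 1.43 in ethanol (exact permutation p = 0.1, adjusted over the 4 ratios 0.133). Without ethanol replicate 3, the difference of the mean log2 ratios was -0.69. Behind the tRNA features were 447, 54.8 and 233 reads for ethanol, and between 39.2 and 54.03 reads for glucose. The tRNA features have between 71 and 90 bases, and RPM1 has 483. How completely RNAs that short were read was not tested, so the ratios compare CPM and not numbers of RNA molecules.

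The tRNA genes on either side of RPM1 gave no usable difference. RPM1 had 180, 260 and 11.6 times the CPM of tP(UGG)Q in ethanol replicates 1 to 3 and between 46.7 and 70.8 times in glucose, an overlap in which ethanol replicate 3 was lowest and ethanol replicate 2 highest (exact permutation p = 1). Its mean log2 ratio was 0.44 higher in ethanol, and -0.40 and -0.14 without ethanol replicates 2 and 1. For tM(CAU)Q2 there were 23.5, 3 and 19 reads from ethanol, but 0.83, 0.5 and 0.5 read from glucose, under the limit of 3 reads. With that limit in place of the glucose values, RPM1 had at least 142, 265 and 296 times the reads of tM(CAU)Q2 in glucose, against 169, 173 and 23.8 times in ethanol, and the groups overlapped. The log2 ratio computed from the values as deposited differed by -3.67, ethanol minus glucose (exact permutation p = 0.1, adjusted over the 4 ratios 0.133), and rests on these glucose values of less than 1 read.

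**Figure D2:**
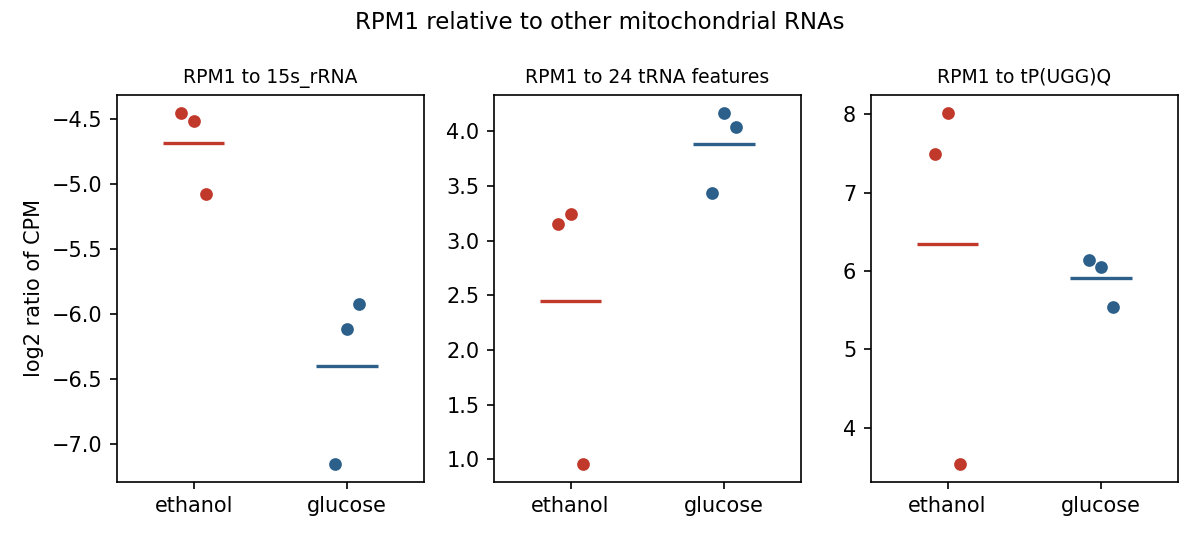
Points give the log2 ratio of RPM1 to the 15S rRNA, to the 24 tRNA features together and to tP(UGG)Q (vertical axes, 1 panel each, with different ranges) in each library, and lines give the mean of 3 libraries. RPM1 is higher in ethanol relative to the 15S rRNA, by 1.72 in the mean log2 ratio, lower relative to the tRNA features, and overlaps between the groups relative to tP(UGG)Q.

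ORI2, ORI3 and ORI5, which have ATATAAGTA there in S288C, had at least 25.3 CPM in every ethanol library, whereas ORI1, ORI88, ORI7 and ORI4 had at most 13.4 CPM in any library. In glucose the levels met, since ORI3 had 2.74 CPM in replicate 3 and ORI7 had 4.14 CPM in replicate 2. Together, ORI2, ORI3 and ORI5 had 255, 54.5 and 70 reads in ethanol replicates 1 to 3 and 41.5, 48 and 42.3 reads in glucose, and the other 4 summed to 10, 0.5 and 15.3 reads for ethanol, and to 4, 4.33 and 2.33 reads for glucose. This grouping was made with the levels known, so it is given as a description with no test.

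ORI2 had 114, 84.1 and 46.9 CPM in ethanol replicates 1, 2 and 3, and 23.1, 21.5 and 26.99 CPM in glucose. Every ethanol library was higher than every glucose library. The log2 fold change of ORI2 was 1.65 ± 1.18 (SE) and did not pass the threshold (limma adjusted p = 0.311). Of the 3 origins with ATATAAGTA at their start, it had the highest glucose level, 80.3 CPM per kb, against 36.1 for ORI5 and 34.1 for ORI3.

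ORI5 had 102, 78.5 and 32.01 CPM in ethanol replicates 1, 2 and 3, and 7.51, 12.9 and 8.99 CPM in glucose. The groups were apart, with 7, 13.5 and 9.83 reads behind the glucose values. Its mean was 7.23 times as high in ethanol, and its log2 fold change of 2.61 ± 1.16 (SE) was the highest of the 5 features tested (limma adjusted p = 0.102).

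ORI3, on the minus strand, had 84.9, 41.1 and 25.3 CPM in ethanol replicates 1, 2 and 3, and 13.9, 11.5 and 2.74 CPM in glucose. The groups were apart again, and glucose replicate 3 was the lowest with 3 reads. Its log2 fold change was 2.36 ± 1.15 (SE, limma adjusted p = 0.132). ORI3 and ORI5 had means under 10 CPM in glucose and passed the filter on low values only through ethanol.

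For RPM1, ORI2, ORI5 and ORI3, ethanol replicate 1 was the highest and ethanol replicate 3 the lowest library of its group, the same order as in the mitochondrial share of the CPM. As a share of the mitochondrial CPM, RPM1 kept that order and these 3 origins did not. The share of ORI3 was 0.0674%, 0.0723% and 0.0805% for ethanol replicates 1 to 3, and 0.0186%, 0.0178% and 0.00428% for glucose. ORI2 took between 0.0907% and 0.149% in ethanol and between 0.0308% and 0.0421% in glucose, and ORI5 between 0.0810% and 0.138% and between 0.0100% and 0.0200%. For each of these 3 the groups did not overlap (exact permutation p = 0.1, adjusted p = 0.196 over 45 mitochondrial features).

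The groups thus did not overlap, with ethanol higher, for 3 of the 9 features on the deposited scale and for 4 on the mitochondrial share, RPM1, ORI2, ORI3 and ORI5. On the deposited scale, 4.19% of all 1693 features tested had every ethanol library above every glucose library. Among the 45 mitochondrial features, tested or not, it was 37.8% on the deposited scale and 44.4% on the mitochondrial share, so that neither 3 of 9 nor 4 of 9 is more than the share of the mitochondrial genome as a whole.

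ORI6 stood apart from the other origins. It had 442, 194 and 225 CPM in ethanol replicates 1, 2 and 3, and 245, 197 and 227 CPM in glucose, and the groups overlapped. Its log2 fold change was 0.27 ± 1.15 (SE, limma adjusted p = 0.879), and the sign changed to -0.08 without ethanol replicate 1. In CPM, the level of ORI6 stayed close to that of OLI1, which starts at the next base. Per kilobase ORI6 was lower, at 185 against 970 CPM per kb in ethanol and 143 against 760 CPM per kb in glucose. Whether single reads were counted for both ORI6 and OLI1 was not tested. The ratio of their CPM was 1.32 ± 0.233 for ethanol libraries and 1.27 ± 0.144 for glucose libraries (SD, n = 3). Over the 6 libraries it had a lowest value of 1.17 and a highest of 1.59. In R64 the ORI6 annotation spans OLI1, and ATATAAGTA occurs at 2 places in it, ending 643 and 565 bases before the first base of OLI1. Whether they lie within the feature that is counted as ORI6 is not known, since ORI6 has 2701 bases in R64 and 1553 in the deposited tables. Both are shown in capitals in a stretch of R64 (chrM:46061-46167, plus strand), because they place a promoter sequence within ORI6 as annotated there.
ORI6: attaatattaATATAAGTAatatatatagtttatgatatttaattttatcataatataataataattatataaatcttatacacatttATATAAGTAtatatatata

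The 4 origins with the GC-rich stretch were near the limit of detection. For ORI7 the values were 7.08, 1.87 and 6.45 CPM from ethanol, and 3.22, 4.14 and 2.13 CPM from glucose, on at most 6 reads. ORI1 had 1, 0 and 9 reads in ethanol and none in glucose. Its ethanol mean was 1.51 times the highest glucose limit of 3 reads, a ratio that rests on the 9 reads of ethanol replicate 3. That ratio leaves out the counting error of the ethanol values. ORI4 had 1, 0 and 2 reads in ethanol and none in glucose. For ORI88 there were 2, 0 and 0 reads from ethanol, and 1, 0 and 0 from glucose. The groups overlapped for ORI1 on the mitochondrial share (exact permutation p = 0.4, adjusted p = 0.529 over 45 mitochondrial features), and its difference of 0.0145 percentage points was 0.000468 without ethanol replicate 3. No difference between the carbon sources was detectable for ORI1, ORI4, ORI88 or ORI7 at this depth.

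**Figure D3:**
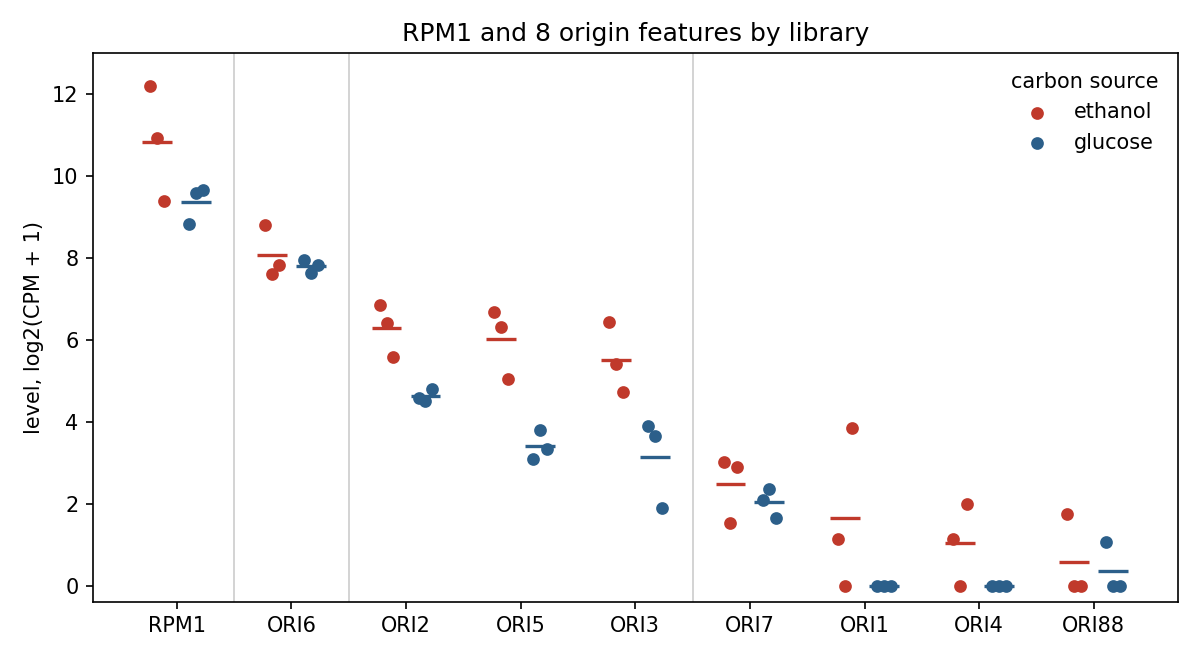
Points give the level of each of the 9 features as log2(CPM + 1) (vertical axis) in the 3 ethanol and 3 glucose libraries, and short lines give the group means. Vertical lines separate RPM1, ORI6, the 3 origins with ATATAAGTA at their start, whose groups do not overlap, and the 4 origins with the GC-rich stretch, which have at most 13.4 CPM.

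Of the 9 features, 5 reached an average of 10 CPM over the libraries and were tested, and ORI1, ORI88, ORI7 and ORI4 were not. None of the 5 passed the limma threshold in either direction, where 2.48% of all features tested were called higher and 11.8% lower in ethanol. At an unadjusted p under 0.05 there were 2, ORI3 and ORI5, where 4.19% of all features tested were higher at that threshold, and both had passed the filter only through ethanol. The median log2 fold change of the 5 was 1.65, against -1.44 over all features tested, a scale set mainly by nuclear RNA. The log2 fold changes lay above that median by 4.05 for ORI5, 3.81 for ORI3, 3.09 for ORI2, 2.92 for RPM1 and 1.72 for ORI6. Centring each library on its median brought ORI2, ORI3 and ORI5 past the threshold, with log2 fold changes of 2.71, 3.42 and 3.67 (limma adjusted p = 0.0439, 0.0362 and 0.0206), and not RPM1 or ORI6. With that centring, 16.8% of all features tested were called higher, so that calls rose across the whole table.

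With mitochondrial features rescaled to their own total, again none of the 5 passed, where 2.84% of all features were called higher. The log2 fold changes were 2.76 for ORI5, 2.52 for ORI3, 1.80 for ORI2, 1.63 for RPM1 and 0.43 for ORI6 (limma adjusted p between 0.0698 for ORI5 and 0.797 for ORI6). The median of the 25 mitochondrial features tested was 0.93 on this scale, and all but ORI6 lay above it. That median includes ORI3, ORI5 and tRNA features that passed the filter on low values only through ethanol. An example is tE(UUC)Q, with a mean of 0.855 CPM in glucose and a log2 fold change of 4.49. Such features raise the median, so a place above or below it is shaped in part by the filter.

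**Figure D4:**
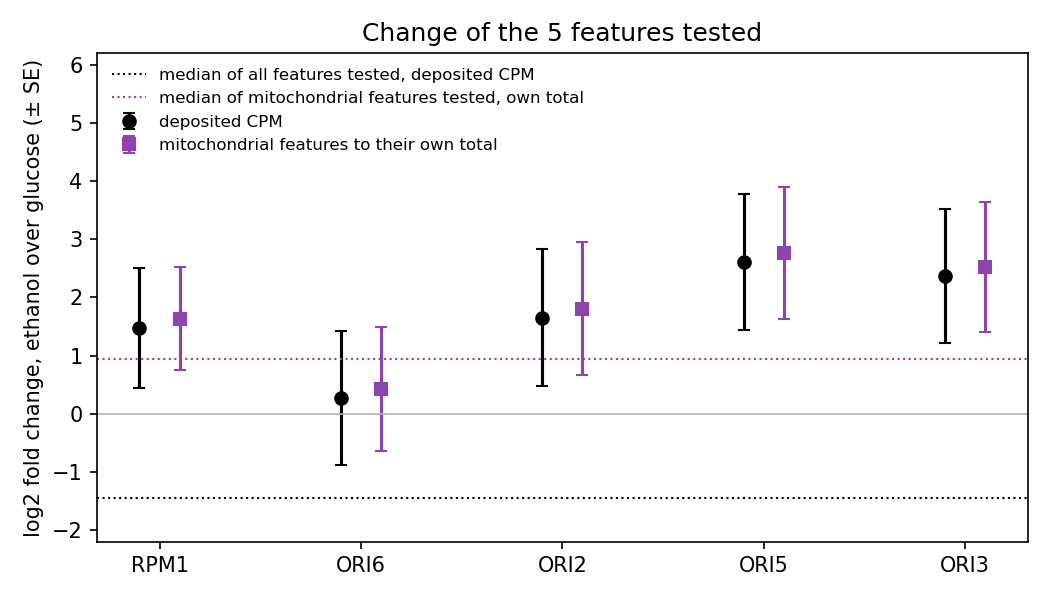
Points give the log2 fold change, ethanol over glucose, of the 5 features tested (vertical axis) on the deposited CPM and with mitochondrial features scaled to their own total, bars give ± 1 SE, and dotted lines give the medians of -1.44 and 0.93 named in the key. ORI5 and ORI3 are highest and ORI6 is nearest to 0, and no point passed the limma threshold. The median of 0.93 includes features that passed the filter on low values only through ethanol, which raise it.

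The features whose log2 share of the mitochondrial CPM varied most like that of each of the 5 were sought among the other 24 mitochondrial features with at least 10 CPM. Pearson correlations are over 6 libraries that share the carbon source, and are a description. ORI2 and ORI5 were each other's nearest (r = 0.967). ORI2 was followed by the phenylalanine tRNA tF(GAA)Q (0.966) and the tyrosine tRNA tY(GUA)Q (0.955), and ORI5 by the valine tRNA tV(UAC)Q (0.955) and tF(GAA)Q (0.945). ORI3 was most like the glutamate tRNA tE(UUC)Q (0.958), then tM(CAU)Q2 (0.881) and ORI5 (0.875). RPM1 was most like tV(UAC)Q (0.946), then ORI5 (0.917) and tF(GAA)Q (0.865). ORI6 differed, with COX2 (0.963), tP(UGG)Q (0.945) and OLI1 (0.933).

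The nuclear genes whose products work with these features were sparse. Of 15 genes for mitochondrial RNase P, tRNA processing, RNA decay, transcription and DNA maintenance, 4 had at least 10 CPM on average and were tested, and none passed in either direction by limma (0 at an unadjusted p under 0.05). Their median log2 fold change was -0.90, against -1.44 over all features tested. RPM2, the protein subunit of RNase P, was at 1.18, 3.74 and 64.02 CPM for ethanol replicates 1 to 3 and at 24.7, 23.9 and 15.6 CPM for glucose (log2 fold change -1.33, limma adjusted p = 0.400). Its ethanol values came from 1, 1 and 43 reads, so that ethanol replicate 3 had the most RPM2 of the ethanol libraries. RPO41, the mitochondrial RNA polymerase, had 0, 7.48 and 22.3 CPM in ethanol and between 15.3 and 23.6 CPM in glucose (log2 fold change -1.87, limma adjusted p = 0.227). ABF2, which packages mitochondrial DNA, and RIM1, which binds single-stranded mitochondrial DNA, had log2 fold changes of 0.52 and -0.47 (limma adjusted p = 0.768 and 0.795). Ethanol replicate 3 was the highest ethanol library for RPM2, RPO41, ABF2 (26.8 CPM) and RIM1 (28.3 CPM) alike. It also had the lowest mitochondrial part of the CPM, 3.15%. This library had the highest RPM2 and the least RPM1 of the ethanol libraries, and a link between RPM2 and RPM1 was not tested. The other 11, among them the mitochondrial DNA polymerase MIP1 and the exoribonuclease DSS1, fell under the filter.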

How the data were processed

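RNA from mitochondria of 3 ethanol and 3 glucose cultures was analysed. The authors deposited 1 table of CPM values per carbon source, with positions on a CEN.PK113-7D assembly per the file headers. The submitters' processing notes name STAR 2.5.4a, SAMtools, featureCounts and edgeR, without roles. Read filters and the strand setting are not given in the sources used here.

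Identical nuclear rRNA copies were summed and 2 doubly listed features used once, leaving 5654 of 5667. The CPM steps gave the worth of 1 read. Between 89.2% and 95.3% of nonzero values per library were whole reads, too few for a count test. Features averaging 10 CPM or more were tested with limma 3.58.1 in R 4.3.3 on log2(CPM + 1), with an intensity trend, and called at a Benjamini-Hochberg adjusted p under 0.05. The prior degrees of freedom were infinite, so the variance came from the trend. On simulated data for this comparison, with 2161 features tested, 96.95% of 197 changed 8-fold were recovered. That recovery holds for the simulated spread only and does not give the power for the features described here. In the real libraries ORI5, with a mean 7.23 times as high in ethanol, did not pass (SE 1.16, limma adjusted p = 0.102). For shares and ratios the test was the exact permutation test of scipy 1.17.1, two-sided. Sequences were read from RefSeq R64 by its own annotation, matched by name, with ORI88 matched to ORI8 by length, strand and neighbouring genes, and aligned with Biopython 1.88. Percentages with a Wilson interval are at 95% confidence.

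The features named are the 9 members, their map neighbours, the 15S rRNA, OLI1, COX1, tested genes of the nuclear list and the 3 most similar features per member. COX1, and the sequence groups, were added after the values were seen. Members and lists were chosen with earlier results of these data known. No value column was without a sample. Limma p-values rest on the spread between these cultures as given by the trend over all features, not on that of the feature itself. Permutation p-values compare the observed difference with those of other assignments of the libraries to the groups. Alternatives are other pseudocounts, filters and scalings (including TMM, computed without weights), no trend, a replicate block and leaving out each library.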

Additional observations from a re-analysis of the deposited data

How the results depend on the processing

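Of the 5 features tested for a change in level, RPM1, ORI2, ORI3 and ORI5 were higher in ethanol in every alternative run. The number past the limma threshold, 0 on the deposited CPM, was 1 with a pseudocount of 10 CPM (ORI5, log2 fold change 1.92), 2 with TMM factors (ORI3, 3.16, and ORI5, 3.41) and 3 with centring on the median (ORI2, 2.71, ORI3, 3.42, and ORI5, 3.67). Calls also rose over all features tested: 4.43%, 9.98% and 16.8% were called higher in these settings, against 2.48%. It was between 0 and 2 when 1 library was left out. It was 2 without ethanol replicate 1 (ORI2 and ORI5) and 2 without ethanol replicate 3 (ORI3 and ORI5), where 9.59% and 2.88% of all features tested were called higher, and 27.9% and 43.2% in either direction. Leaving out 1 library gave log2 fold changes between 1.37 and 2.0001 for ORI2, 1.74 and 2.76 for ORI3, 2.28 and 3.10 for ORI5, 0.80 and 2.20 for RPM1, and -0.084 (without ethanol replicate 1) and 0.51 for ORI6. The cause was not tested. The log2 ratio of RPM1 to tP(UGG)Q was between -0.40 and 1.84, and changed sign without ethanol replicate 1 (-0.14) or ethanol replicate 2 (-0.40). The share of ORI88 (-0.000477 without ethanol replicate 1, -9.09e-05 without glucose replicate 2 or 3) and of ORI7 (-0.000227 without ethanol replicate 3) changed sign in percentage points, from a few reads, and ranged up to 0.000624 and 0.00838. Other shares and ratios kept their direction, among them the share of RPM1, with differences between 1.76 and 2.55 percentage points when 1 library was left out and 30.2 without rRNA in the total. ORI3 and ORI5 had no value with a filter at 50 CPM.

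Same-numbered libraries did not deviate together (r between -0.08 and 0.01), so the replicate block has no basis in the data. With the replicate block, the log2 fold changes were 1.48 for RPM1, 1.65 for ORI2, 0.27 for ORI6, 2.36 for ORI3 and 2.61 for ORI5 (limma adjusted p between 0.332 and 0.925), none passed in either direction (0 higher and 0 lower), and the calls over all features went from 241 to 9. Depth limits the 4 origins with at most 9 reads in a library.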
